A study of Homo sapiens with 4 samples.

Results

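The genes described here are the 10 nuclear genes listed for copying, transcribing and stabilising the products of mitochondrial DNA: *TFAM*, *POLRMT*, *TFB1M*, *TFB2M*, *TEFM*, *POLG*, *POLG2*, *TWNK*, *LRPPRC* and *SLIRP*. They were taken by name from a table of 61541 Ensembl genes, and all 10 were found and had enough reads to be tested. The RNA came from MHCC97H, an established human hepatocellular carcinoma (HCC) cell line, in 2 groups of 2 libraries each. Control cells carried the shRNA labelled shCon, and knockdown cells carried an shRNA against *UBXN1* (shUBXN1), which encodes a ubiquitin-binding cofactor of the VCP ATPase. The comparison asks how the mRNA of these genes differed after *UBXN1* knockdown. It covers 1 cell line, and which of the study's shRNAs was introduced is not given in the sources used here. Nor do the labels say whether the 2 libraries of a group came from separate cultures, so the p-values measure the spread between these libraries, which may be technical.

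Human mitochondria keep a small circular genome that encodes core subunits of the respiratory chain and the RNAs needed to translate them. Every protein that copies or transcribes this genome is encoded in the nucleus. TFAM packages the DNA into nucleoids and, with TFB2M, brings the RNA polymerase POLRMT to the promoters, and TEFM keeps the polymerase moving. The polymerase POLG, its accessory subunit POLG2 and the helicase TWNK (Twinkle) copy the DNA. LRPPRC and SLIRP form a complex that binds mitochondrial mRNAs and keeps them stable. TFB1M, a relative of TFB2M, methylates the RNA of the small mitochondrial ribosomal subunit.

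The libraries held 23373700 to 27380508 counts. *UBXN1*, the targeted gene, was at 67.0 and 77.3 counts per 1000000 (CPM) in shCon and at 16.8 and 18.5 CPM in shUBXN1, and it fell by 2.03 on the log2 scale (SE 0.0963, adjusted p = 9.98e-10, edgeR's quasi-likelihood test). CPM here are counts scaled to each library's total and its TMM factor, the correction of edgeR for a few genes taking up many reads. Of 11 hepatocyte markers, 6 were above 1 CPM in every library and *APOC3* was at 0. Their summed level was 270 and 261 CPM in shCon and 118 and 122 CPM in shUBXN1, with *TF* (transferrin) the largest part of the difference, at 97.5 ± 7.40 CPM against 25.0 ± 0.831 CPM (SD, n = 2), while *SERPINA1* rose (log2 fold change 0.40, adjusted p = 0.0271, edgeR). The HCC marker *AFP* was at 3.93 to 5.88 CPM and *GPC3* was at 0 in every library. The 4 fibroblast markers summed to 1.42 and 0.893 CPM in shCon and to 3.15 and 3.03 CPM in shUBXN1. They went both ways: *COL1A1* rose from 0.272 to 2.43 CPM and *DCN* fell from 0.595 to 0.0617 CPM (means of 2). The erythroid markers summed to at most 0.468 CPM. The 4 immune markers summed to 82.6 and 88.5 CPM in shCon and to 72.8 and 70.6 CPM in shUBXN1, nearly all of it *CD68*, which fell, with *CD3E* at 0. The 3 endothelial markers summed to 33.8 and 34.1 CPM in shCon and to 44.3 and 42.9 CPM in shUBXN1, nearly all of it *PECAM1*, which rose. The part of these markers in the results for the 10 genes was not tested.

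Of the 10 genes, 5 fell after *UBXN1* knockdown: *TWNK*, *SLIRP*, *LRPPRC*, *TEFM* and *TFAM*. None was higher at an adjusted p under 0.05 by edgeR's quasi-likelihood test, and 0 were higher at an unadjusted p under 0.05, by DESeq2, by limma-voom or by limma on TPM. Among all 16863 genes tested, 56.2% were called by the same rule, 28.2% lower and 28.0% higher. The share lower was 32.2% among the 13511 protein-coding genes tested. Among the 11233 genes at least as abundant as *TFB1M*, the lowest of the 10, 37.1% were lower and 28.6% higher. In CPM, both shUBXN1 libraries lay below both shCon libraries in 8 of the 10 genes, against 38.6% of all genes tested. Both lay above in 0 of the 10, against 39.4%. These shares were not computed for abundant genes alone. In TPM, the groups of *POLRMT* and *POLG* overlapped, and both shUBXN1 libraries of *POLG2* lay above both shCon libraries. With limma on TPM, 3 of the 10 were lower. The falls were small. No gene of the 10 passed a fold change of 2, which 17.9% of all genes passed at an unadjusted p under 0.05, 6.09% lower and 11.8% higher, and the median log2 fold change was −0.28, beside 0.02 over all genes tested. In bulk RNA, fewer cells of a type and less RNA per cell cannot be told apart.

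**Figure D1:**
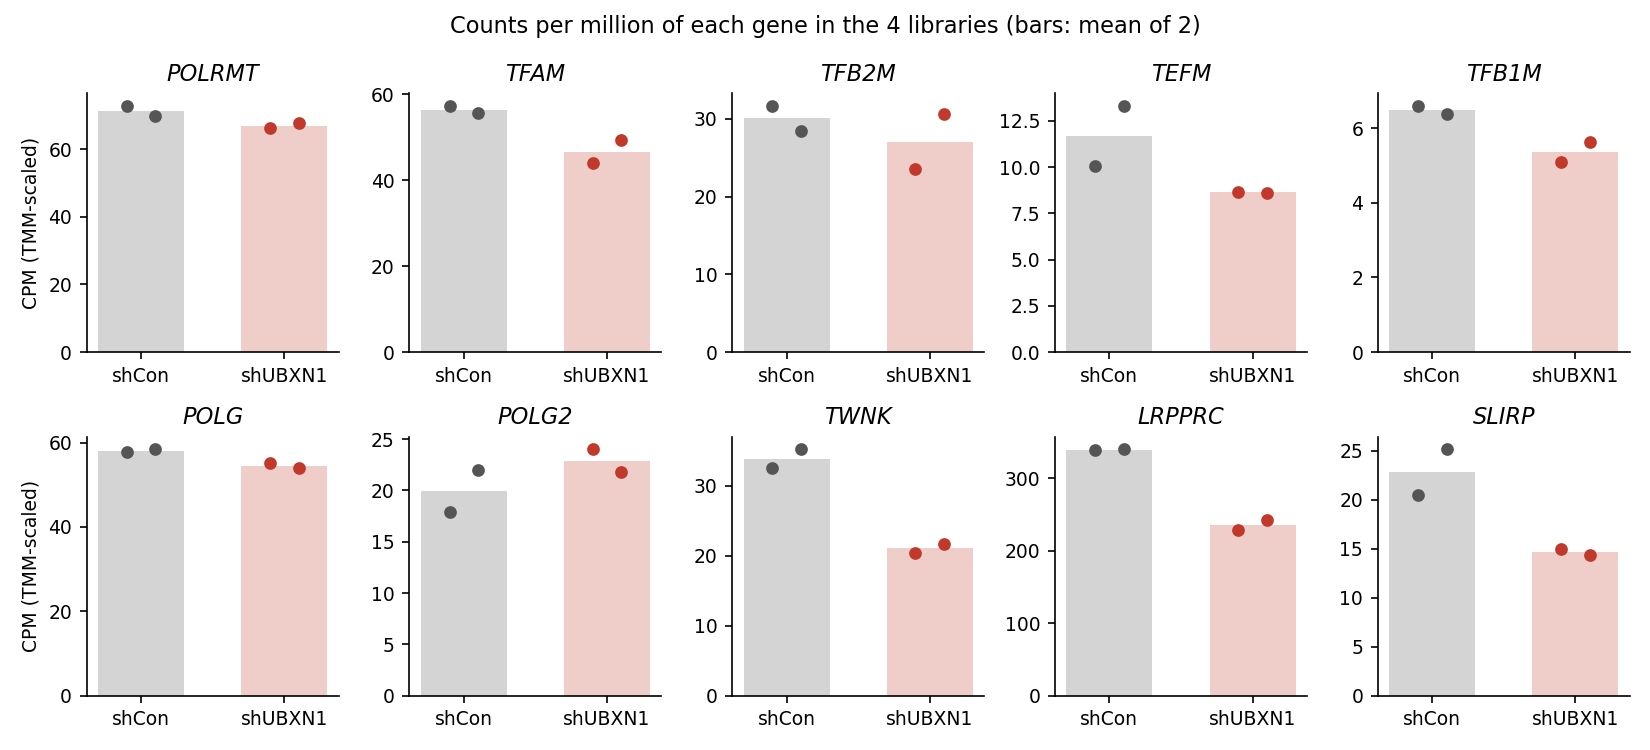
Counts per 1000000 (CPM, TMM-scaled, each axis from 0) of the 10 genes in the 4 libraries, with 1 point for each library and bars for the mean of 2. In *TWNK*, *LRPPRC* and *SLIRP* the shUBXN1 points lie well below the shCon points, whereas in *TFB2M* and *POLG2* the groups overlap.

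The mRNA stability partners both fell. *LRPPRC* (chr2:43886224-43996226, minus strand, GRCh38), which encodes the large pentatricopeptide repeat protein of the complex, was the most abundant of the 10 genes, at 339 and 340 CPM in shCon and 229 and 243 CPM in shUBXN1. The shCon libraries were nearly equal and the groups were far apart. Its log2 fold change was −0.52 (SE 0.0742, 95% interval −0.68 to −0.37, adjusted p = 3.4e-05, edgeR), which left 69.5% of the control level, with an interval of 62.3% to 77.6%. These values rest on 5671 to 9043 counts in each library.

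*SLIRP* (chr14:77708071-77761104, plus strand, GRCh38) encodes the small RNA-binding partner of LRPPRC. It was at 20.5 and 25.1 CPM in shCon and at 15.0 and 14.4 CPM in shUBXN1. The shCon libraries were further apart than the shUBXN1 libraries, and the groups did not overlap. The gene fell by 0.63 on the log2 scale (SE 0.120, interval −0.89 to −0.38, adjusted p = 0.000433, edgeR), to 64.5% of control. Without shCon replicate 2, the higher of the controls, the log2 fold change was −0.50 and still passed. Exons of *SNW1* on the other strand cover 4.49% of the exon bases of *SLIRP*. *SNW1* was counted 2040 and 1767 times in shCon and 1468 and 1619 times in shUBXN1, more often than *SLIRP* in every library. The sources used here do not say whether the counting used strand.

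The balance between these partners was measured as the ratio of their TPM, which is transcripts per 1000000 and corrects for gene length. *LRPPRC* to *SLIRP* was 2.32 and 1.90 in shCon and 2.14 and 2.37 in shUBXN1. The groups overlapped, and the difference of 0.10 on the log2 scale had an exact two-sided permutation p of 0.667. With 2 libraries against 2 the smallest p that such a test can give is 0.333, so no ratio could pass here. After adjustment over the 4 ratios compared, each had p = 0.667 by the exact permutation test.

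Among the replication genes, *TWNK* fell while *POLG* and *POLG2* did not pass the test. *TWNK* (chr10:100987367-100994403, plus strand, GRCh38), the helicase that unwinds mitochondrial DNA ahead of the polymerase, was at 32.5 and 35.2 CPM in shCon and at 20.4 and 21.7 CPM in shUBXN1. The gap between the groups was several times the spread within either. Its log2 fold change of −0.69 (SE 0.0948, interval −0.89 to −0.48, adjusted p = 2.7e-05, edgeR) was the largest fall of the 10 and left 62.2% of control, with an interval of 54.0% to 71.6%. The antisense gene *MRPL43* shares 3.60% of the exon bases of *TWNK*. It had 999 and 809 counts in shCon and 772 and 746 in shUBXN1.

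*POLG* (chr15:89305198-89334861, minus strand, GRCh38) encodes the catalytic subunit of the polymerase. It was at 57.7 and 58.4 CPM in shCon and at 55.0 and 54.0 CPM in shUBXN1. Both knockdown libraries were lower, but only slightly. The log2 fold change of −0.09 (SE 0.0746, interval −0.25 to 0.07, adjusted p = 0.321, edgeR) did not pass, and the interval allows a level between 84.1% and 105% of control. *FANCI*, on the other strand, shares 5.53% of the exon bases of *POLG* and was counted 3197 and 2808 times in the shCon libraries, and 1840 and 1737 times after knockdown. *POLGARF*, whose reading frame lies within *POLG* transcripts, shares 9.46% and was not analysed here.

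*POLG2* (chr17:64477785-64497054, minus strand, GRCh38), the processivity subunit, was the only gene of the 10 with a log2 fold change above 0. Its level was 17.9 and 21.9 CPM in shCon and 24.0 and 21.8 CPM in shUBXN1. The groups overlapped, with shCon replicate 1 apart from the other 3 libraries. The log2 fold change was 0.21 (SE 0.116, interval −0.04 to 0.45, adjusted p = 0.147, edgeR). Without shCon replicate 1 it was 0.06. The TPM ratio of *POLG* to *POLG2* was 1.15 and 0.943 in shCon and 0.813 and 0.878 in shUBXN1, a log2 difference of −0.30 with no overlap between the groups and the smallest possible exact permutation p, 0.333.

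Of the 4 genes of the transcription machinery, *TFAM* and *TEFM* passed the test and *POLRMT* and *TFB2M* did not. This split depends on the processing: with the GC trend of each library removed, *POLRMT* passed and *TFAM*, *TEFM* and *TFB2M* did not. No test compared the genes with each other beyond the ratio given here. *TFAM* (chr10:58385345-58399220, plus strand, GRCh38) was at 57.3 and 55.6 CPM in shCon and at 43.9 and 49.3 CPM in shUBXN1. The knockdown libraries were both lower and stood further apart than the controls. *TFAM* fell by 0.28 on the log2 scale (SE 0.0818, interval −0.45 to −0.10, adjusted p = 0.0102, edgeR), to 82.6% of control. The call was lost without shCon replicate 1 (log2 fold change −0.25, adjusted p = 0.0684, edgeR), with limma on TPM (−0.21, adjusted p = 0.0689) and with the GC trend of each library removed (−0.19, adjusted p = 0.0616, edgeR).

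*POLRMT* (chr19:617221-633537, minus strand, GRCh38), the mitochondrial RNA polymerase, was at 72.8 and 69.9 CPM in shCon and at 66.3 and 67.7 CPM in shUBXN1. The shUBXN1 libraries lay just below the controls. The log2 fold change was −0.09 (SE 0.0737, interval −0.25 to 0.07, adjusted p = 0.312, edgeR), at 93.9% of control. The exons of *POLRMT* have a GC content of 66.4%, the highest of the 10. With the GC trend of each library removed, its log2 fold change was −0.34 and passed (adjusted p = 0.00142, edgeR), so the call for *POLRMT* depends on that setting. The TPM ratio of *TFAM* to *POLRMT* was 0.591 and 0.597 in shCon and 0.498 and 0.547 in shUBXN1, which gave a log2 difference of −0.19 with no overlap and an exact permutation p of 0.333. *TFAM* exons have a GC content of 36.4%. With the GC trend removed, *TFAM* fell by less than *POLRMT* (log2 fold changes −0.19 and −0.34), the reverse of the order without that step. The direction of this ratio therefore depends on that setting, under which the ratio itself was not computed.

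*TFB2M* (chr1:246540561-246566261, minus strand, GRCh38), which melts the promoter DNA for the polymerase, was at 31.7 and 28.5 CPM in shCon and at 23.5 and 30.6 CPM in shUBXN1. Only shUBXN1 replicate 1 was below both controls. The log2 fold change was −0.15 (SE 0.117, interval −0.41 to 0.10, adjusted p = 0.280, edgeR). It turned to 0.02 without shUBXN1 replicate 1 and was −0.37 without shUBXN1 replicate 2, so the value depended on which knockdown library was kept.

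*TEFM* (chr17:30897336-30906238, minus strand, GRCh38), the elongation factor, was at 10.1 and 13.3 CPM in shCon and at 8.67 and 8.62 CPM in shUBXN1. The knockdown libraries were nearly equal and the controls were not. The gene fell by 0.43 on the log2 scale (SE 0.157, interval −0.77 to −0.10, adjusted p = 0.0299, edgeR), to 74.1% of control. Without shCon replicate 2 the log2 fold change was −0.24 and did not pass (adjusted p = 0.378, edgeR). Nor did it pass with DESeq2 (−0.44, adjusted p = 0.0952), limma on TPM (−0.34, adjusted p = 0.0740), total count scaling (−0.35, adjusted p = 0.1025, edgeR) or the GC trend removed (−0.36, adjusted p = 0.0624, edgeR). A long noncoding RNA gene on the other strand (ENSG00000275185) covers 20.5% of its exon bases, but had at most 7.78 counts in any library.

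*TFB1M* (chr6:155256134-155314493, minus strand, GRCh38), the rRNA methyltransferase, was the least abundant of the 10, with 126 to 176 counts in each library. It was at 6.60 and 6.38 CPM in shCon and at 5.08 and 5.63 CPM in shUBXN1. The groups did not overlap. The log2 fold change of −0.28 was the same as that of *TFAM* to 2 decimals, but its error was larger (SE 0.182, interval −0.67 to 0.11, adjusted p = 0.215, edgeR), and it did not pass. The interval runs from 63.0% to 108% of control. *TIAM2* on the other strand shares 30.7% of the exon bases of *TFB1M* and had 172 to 244 counts in each library, so this level is uncertain without strand. A long noncoding RNA gene on the same strand (ENSG00000235381) shares 14.4%, which strand would not resolve, and had 8 to 18 counts in each library. The TPM ratio of *TFB1M* to *TFB2M* was 0.133 and 0.143 in shCon and 0.138 and 0.117 in shUBXN1, with overlapping groups (log2 difference −0.11, exact permutation p = 0.667).

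**Figure D2:**
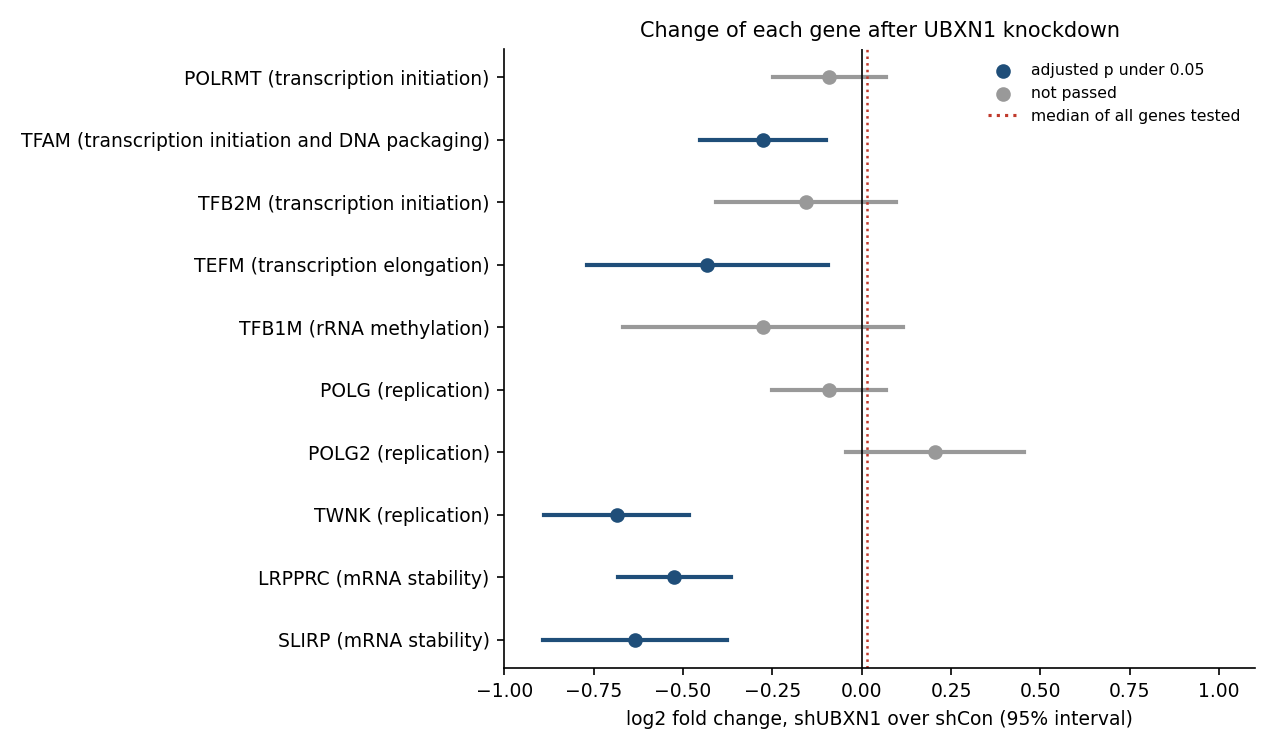
Log2 fold change of the 10 genes in shUBXN1 over shCon, with 95% intervals from edgeR's quasi-likelihood fit. Blue genes passed at an adjusted p under 0.05, grey ones did not, and the dotted line is the median of all genes tested (0.02). The 5 genes that passed lie to the left of 0, and only *POLG2* lies to the right.

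Per gene length, the members spanned a wide range. In shCon, *LRPPRC* was at 132 ± 2.49 TPM (SD, n = 2) and *SLIRP* at 63.1 ± 7.74 TPM. *POLRMT* followed at 38.0 ± 1.91 TPM, ahead of *TFB2M* at 33.8 ± 3.27 TPM. *POLG* (26.1 ± 0.348 TPM) and *POLG2* (25.2 ± 3.12 TPM) overlapped, as did *POLG2* and *TFAM* (22.6 ± 0.972 TPM). Next were *TWNK* (18.8 ± 0.640 TPM) and *TEFM* (17.9 ± 3.13 TPM), which overlapped as well. *TFB1M* was last at 4.65 ± 0.208 TPM. In TPM, the mRNA of the polymerase that transcribes mitochondrial DNA was above that of the catalytic subunit of the one that copies it. The mRNA of the rRNA methyltransferase was well below that of its relative *TFB2M*. The order between genes rests on the deposited gene lengths, whose origin is not given in the sources used here. They differ from the GENCODE exon bases by unlike amounts: 4462 against 8280 for *POLG*, 3771 against 5060 for *POLRMT* and 1784 against 1784 for *TFB2M*.

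In shUBXN1 the order was kept at both ends and changed in the middle. *LRPPRC* (95.4 ± 0.972 TPM), *SLIRP* (42.4 ± 3.44 TPM) and *POLRMT* (37.1 ± 1.40 TPM) led again, and *TFB1M*, at 3.94 and 4.05 TPM, was last. *POLG2* stood at 30.4 ± 3.66 TPM, above *POLG* at 25.6 ± 1.70 TPM, and its libraries overlapped those of *TFB2M* (31.6 ± 4.22 TPM). *TFAM* was at 19.4 ± 0.560 TPM. *TEFM* at 13.9 ± 0.795 TPM was above *TWNK* at 12.2 ± 0.111 TPM, the reverse of their shCon means.

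**Figure D3:**
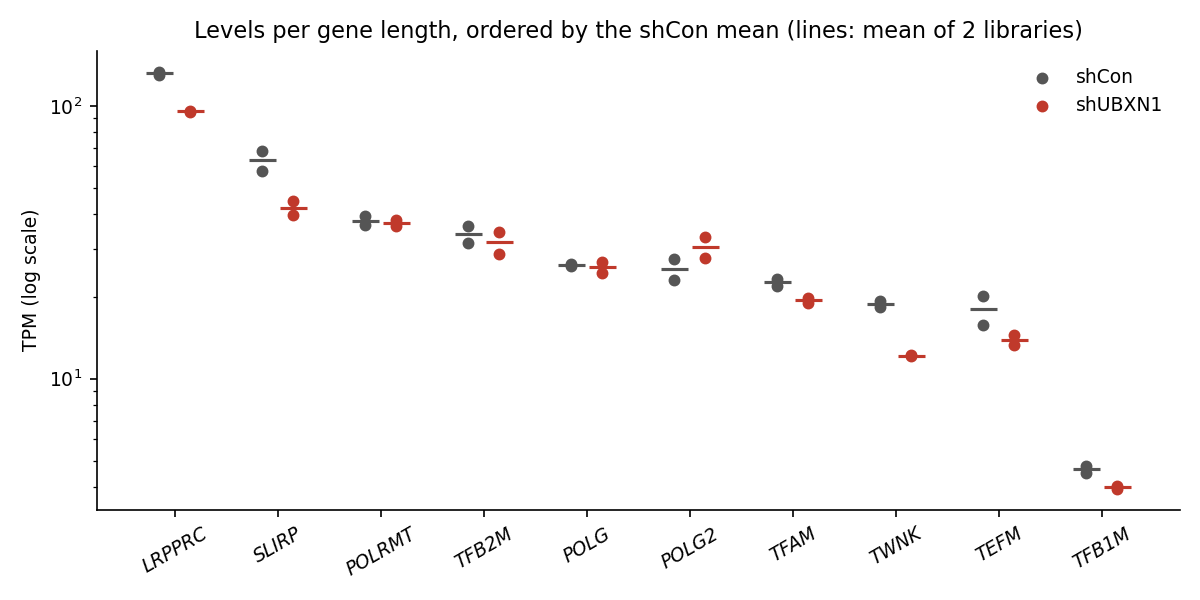
Transcripts per 1000000 (TPM, log axis) of the 10 genes in each library, ordered by the shCon mean; points are libraries and lines are means of 2. *LRPPRC* leads and *TFB1M* is last in both groups, and neighbours in the middle of the order overlap.

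Several of these genes are known targets of NRF1 and of ETS factors such as GABP, and short words of those factors were looked up in RefSeq promoter sequences (GRCh38.p14) from 250 bases before to 50 bases after each gene start. Windows were found for 9 of the 10 genes, with 2 starts for *SLIRP*. The exception was *TWNK*. The words were GCGCA and GCGC with any base between them for NRF1, CCGGAAG for ETS factors, AAGATGGCG for YY1 and CACGTG for E-box factors such as MYC, each on both strands. The NRF1 word was in 4 of the 9 genes, *POLRMT*, *TFAM*, *TFB1M* and *POLG2*. It was in 1480 of the 11676 tested genes with a window. Among all 35116 promoter windows, which are not limited to tested genes, the share was 5.78%. The following stretches of 30 bases, read along the gene's own strand with the word in capitals, show where it lies in each. An NRF1 word that reads GCGCCTGCGC is the match on the opposite strand.
POLRMT, chr19:633542-633571, minus strand: ggcggcgcggGCGCATGCGCaggcgcgggc
TFAM, chr10:58385337-58385366, plus strand: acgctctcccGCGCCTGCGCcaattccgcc
TFB1M, chr6:155314597-155314626, minus strand: gcaggacttaGCGCATGCGCtctcagcacg
POLG2, chr17:64497049-64497078, minus strand: cacctccgttGCGCCTGCGCcgtggcctct

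The word began 24 bases before the start in *POLRMT*, 63 in *TFAM*, 132 in *TFB1M* and 14 in *POLG2*, counted from the RefSeq start. For *TFAM* that start lies downstream of the GENCODE gene start given above, so the word lies just inside the gene as GENCODE draws it. In *POLRMT* another NRF1 word overlaps the one shown and begins 18 bases before the start. Of these 4 genes, *TFAM* fell and the others did not pass the test. The ETS word was in 5 of the 9 genes, *POLRMT*, *TFB1M*, *POLG2*, *SLIRP* and *TEFM*. The same word was in 2448 of the 11676 tested genes with a window and in 10.3% of all windows. It began 44 or 76 bases before the start in *SLIRP*, depending on which start is used, 6 in *TEFM*, 59 in *POLG2*, 85 in *TFB1M* and 93 in *POLRMT*. *SLIRP* and *TEFM* fell and the other 3 did not pass the test. All 5 are shown, and CTTCCGG is the match on the opposite strand.
SLIRP, chr14:77708016-77708045, plus strand: taccctctgatCCGGAAGcagattctctcg
TEFM, chr17:30906226-30906255, minus strand: gcacgcaggaaCCGGAAGtcaatggaggaa
POLG2, chr17:64497095-64497124, minus strand: gcagacatgcgCTTCCGGggtggggcctgc
TFB1M, chr6:155314551-155314580, minus strand: cgcggtcatcgCTTCCGGtgggataggtct
POLRMT, chr19:633612-633641, minus strand: ctgggagtctaCTTCCGGctggggtttccc

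*SLIRP* also held the YY1 word after its start, which 500 of the 11676 tested genes with a window and 1.75% of all windows hold. The E-box word was in 0 of the 9 genes, in 1424 of the 11676 and in 7.26% of all windows. None of the 4 words was in the windows of *POLG*, *TFB2M* or *LRPPRC*, and *LRPPRC* fell. Among the 11676 tested genes with a window, 31.8% were called lower, and the share was 32.9% with the NRF1 word, 36.1% with the ETS word, 40.6% with the YY1 word and 33.4% with the E-box word. A word in a window is a description of its letters and not a site shown to be bound.

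**Figure D4:**
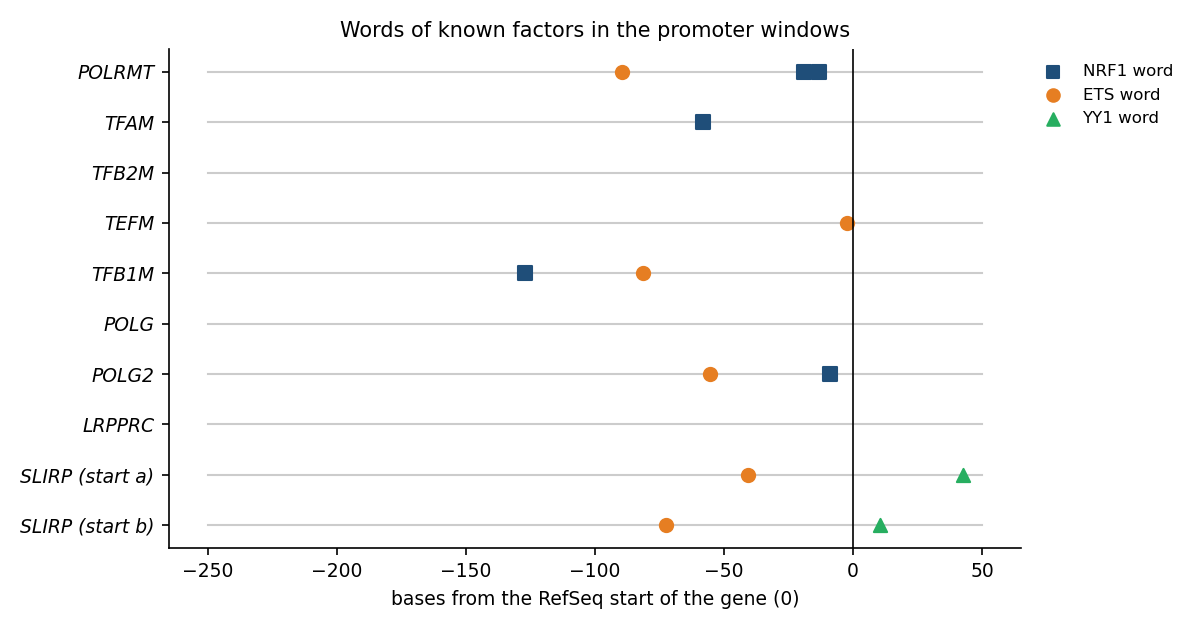
Position of the NRF1, ETS and YY1 words relative to the RefSeq start (0) in the promoter windows of 9 genes, each a grey line from 250 bases before to 50 bases after the start, with both starts of *SLIRP*. The NRF1 words lie before the start in *POLRMT*, *TFAM*, *TFB1M* and *POLG2*.

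Other nuclear genes that act on mitochondrial DNA and RNA were counted in lists by function. The lists stand beside 28.2% of all genes tested that were lower and 28.0% that were higher, and beside 37.1% and 28.6% among the genes at least as abundant as *TFB1M*. Of 14 further replication and nucleoid genes, 10 fell and 0 rose by edgeR at an adjusted p under 0.05. None rose at an unadjusted p under 0.05 either, 0 by DESeq2 or limma-voom and 1 by limma on TPM, and the median log2 fold change was −0.51. The largest falls were in *TOP1MT*, the mitochondrial type I topoisomerase, from 72.1 ± 0.10 to 30.5 ± 1.96 CPM (SD, n = 2, log2 fold change −1.24), and in *FEN1*, a flap endonuclease that also acts in nuclear replication, from 119 ± 1.39 to 62.3 ± 6.27 CPM (−0.94).

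Of 18 genes of nucleotide supply, 9 fell and 4 rose, with a median of −0.35. Genes called in both directions were also what the whole table held, at 28.2% lower and 28.0% higher. *RRM2*, a subunit of ribonucleotide reductase, fell from 135 ± 0.397 to 59.3 ± 7.06 CPM (log2 fold change −1.18). *TYMP*, which degrades thymidine, rose from 6.06 ± 0.457 to 14.6 ± 0.871 CPM (1.27), and *SLC25A36*, a pyrimidine nucleotide carrier, from 11.9 ± 0.333 to 15.2 ± 0.983 CPM (0.35), though the call for *SLC25A36* was lost without either control (0.32 and 0.36) or shUBXN1 replicate 1 (0.28). Without shCon replicate 2, 1 gene of the list was called higher.

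For transcription termination and transcript processing, 6 of 14 genes fell and 2 rose, with a median of −0.18, where 37.1% of genes at least as abundant as *TFB1M* were lower and 28.6% higher. The rRNA methyltransferase *MRM1* (log2 fold change −0.85) and *MTERF4* (−0.40) showed the largest falls. *NSUN4*, the RNA methyltransferase that pairs with MTERF4, rose by 0.53, and *PRORP*, the nuclease subunit of mitochondrial RNase P, by 0.48, a call lost without shCon replicate 1 (0.30) or shUBXN1 replicate 1 (0.40). Without shCon replicate 1, 4 were lower and 1 was higher, and without shCon replicate 2, 3 were lower. The list of transcript stability and decay, the nearest in function to *LRPPRC* and *SLIRP*, held 7 genes that fell and 4 that rose of 16, with a median of −0.18, which is read against the same 37.1% and 28.6%. *SUPV3L1*, the helicase of the mitochondrial RNA degradosome, fell by 0.74 and *PTCD3*, a mitoribosomal pentatricopeptide repeat protein, fell by 0.62. The oligoribonuclease *REXO2* rose from 35.7 ± 1.64 to 71.7 ± 4.89 CPM (1.01) and *FASTKD1* from 16.7 ± 0.792 to 27.4 ± 1.70 CPM (0.71).

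Of 15 nuclear regulators of mitochondrial biogenesis, 13 were tested, 7 fell and 1 rose, with a median of −0.22. *PPARGC1A* and *ESRRG*, with at most 2 counts in any library, did not pass the filter. *GABPB2*, a subunit of the ETS complex GABP, fell from 33.8 ± 0.529 to 13.7 ± 2.01 CPM (log2 fold change −1.31), and *MYC* from 218 ± 2.06 to 106 ± 15.3 CPM (−1.04). *NFE2L2*, a factor of the oxidative stress response, rose by 0.23 (adjusted p = 0.0290, edgeR), a call lost without either control (0.20 and 0.25) or shUBXN1 replicate 2 (0.10). Without either control, 4 regulators were lower. *NRF1* (−0.50, adjusted p = 0.00145, edgeR) and *GABPA* (−0.32, adjusted p = 0.00624, edgeR) fell too, whereas *YY1* had a log2 fold change of 0.05 and did not pass (adjusted p = 0.599, edgeR). These 3 were named after their values were seen because their words were looked up above.

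Of the 13 mRNAs that mitochondrial DNA itself encodes, 9 rose, and they were not tested against the 10 factors. All 13 had a log2 fold change above 0, and the median was 0.48. The number called higher was 11 with DESeq2 and with limma-voom, 12 with limma on TPM and 13 with total count scaling. Of the 13, 0 fell (0 at an unadjusted p under 0.05 by edgeR, and 0 by DESeq2 or limma). *MT-ND4L* rose from 904 ± 69.9 to 1605 ± 265 CPM (0.83) and *MT-ND4* from 5892 ± 457 to 10301 ± 1370 CPM (0.81). The reading frames of these 2 complex I subunits overlap on 1 transcript. Without shCon replicate 1, 5 of the 13 passed. Counts of the mitochondrial genome made up 5.28% and 5.59% of the shCon libraries and 7.43% and 8.27% of the shUBXN1 libraries.

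**Figure D5:**
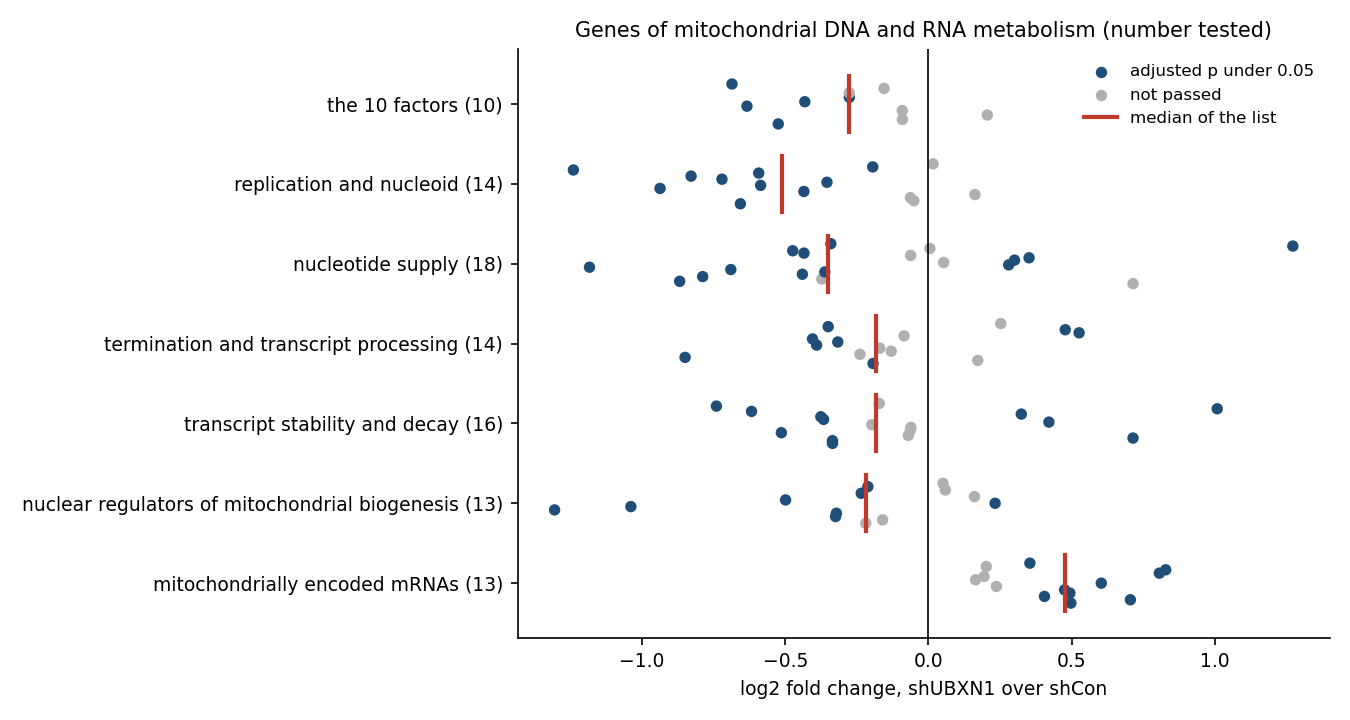
Log2 fold change of every tested gene in the 10 factors and the 6 further lists, with blue points for an adjusted p under 0.05 (edgeR), grey points for genes that did not pass and a red line at each list's median. The mitochondrially encoded mRNAs lie to the right of 0, whereas the medians of the nuclear lists lie to its left.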

How the data were processed

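Total RNA of 4 libraries was sequenced. The deposited values are expected counts per gene made by the authors, not normalized and not all whole (62.4% to 64.6% of values above 0 were whole in each library), with a gene length. The methods name GRCh38, the submitters' processing notes GRCh37, HISAT2 2.0.4 and StringTie 1.3.0. The counting tool, its annotation and its use of strand are not given in the sources used here. The methods also name the control shRFP where the labels have shCon, and another library kit than the labels.

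Counts were rounded, filtered with filterByExpr, scaled by TMM and tested with glmQLFTest in edgeR 4.0.16 (R 4.3.3), without a block, with Benjamini-Hochberg adjustment over 16863 genes. SE is the log2 fold change over the square root of F. TPM were computed from counts and the length column. Symbols (99.7% of 61541 IDs), coordinates, exon GC content and overlaps came from GENCODE 44 on GRCh38, since the table holds no coordinates. With 2 libraries a group the fit had 2 residual degrees of freedom per gene plus spread shared across genes. Replicates differed by more than sampling noise (chi-square per degree of freedom 3.79 in shCon and 8.37 in shUBXN1). The test was checked on simulated data with 200 of 16863 genes changed, whereas 56.2% of genes were called in the real data. It recovered 34 of 66 genes changed by 0.5 on the log2 scale, 51 of 67 changed by 1 and 66 of 67 changed by 2. Because far fewer genes changed in the simulation than were called in the real data, these shares need not hold there. A gene that did not pass may still have changed within its 95% interval. Of the members that did not pass, only *TFB1M* had an interval (−0.67 to 0.11) that reached a change of 0.5.

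Named genes are the 10 members, UBXN1 and, in each list, the 2 genes with the largest rise and the 2 with the largest fall that passed an adjusted p of 0.05. A gene that this rule names is not reported here. The members and lists were chosen with earlier results of these data known. Alternatives were DESeq2 1.42.0, limma-voom and limma 3.58.1 on log2(TPM + 1), total count scaling, no filter, at least 10 counts in every library, a replicate block, removal of each library's GC trend, a fold change of 2 with an unadjusted p, ratios of CPM, and leaving out each library.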

Additional observations from a re-analysis of the deposited data

How the results depend on the processing

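*TWNK*, *LRPPRC* and *SLIRP* passed under all 12 alternative fits, with log2 fold changes of −0.74 to −0.59, −0.58 to −0.44 and −0.77 to −0.50, and *TFB1M*, *POLG* and *POLG2* passed under 0. *TFAM* passed under 9 and *TEFM* under 7. *TFAM* missed the threshold with limma on TPM (−0.21), GC trend removed (−0.19) and without shCon replicate 1, in a range of −0.38 to −0.20 without 1 library. *TEFM* missed it with DESeq2 (−0.44), limma on TPM (−0.34), total count scaling (−0.35), GC trend removed (−0.36) and without shCon replicate 2, in a range of −0.62 to −0.24. *POLRMT* passed with the GC trend removed (−0.34). *TFB2M* ranged from −0.37 to 0.0209 without 1 library and turned positive without shUBXN1 replicate 1. The causes were not tested. Of the 10 genes, 3 were lower with limma on TPM, 0 at a fold change of 2 and 4 to 6 without 1 library. Their median was −0.19 with limma on TPM and −0.19 with total count scaling, which puts the median of all genes at 0.10, and −0.37 to −0.20 without 1 library. At a fold change of 2, 1027 of all genes were lower and 1997 higher.

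For replication and nucleoid genes, 1 was higher with limma on TPM. Their median was −0.40 with limma on TPM, −0.43 with total count scaling, −0.48 with at least 10 counts and with the GC trend removed, and −0.54 to −0.48 without 1 library. For nucleotide supply, 2 were higher with DESeq2 and 1 to 3 without 1 library (1 without shCon replicate 2), and the median was −0.20 with limma on TPM, −0.27 with total count scaling and −0.32 to −0.26 without 1 library. For termination and processing, 3 to 7 were lower without 1 library (3 without shCon replicate 2), 1 was higher with DESeq2, 4 with total count scaling, 4 with at least 10 counts, 4 with the replicate block and 1 to 3 without 1 library (1 without shCon replicate 1). The median was −0.10 with total count scaling and −0.26 to −0.0946 without 1 library. For stability and decay the median was −0.12 with limma on TPM, −0.10 with total count scaling, −0.23 with the GC trend removed and −0.24 to −0.15 without 1 library. For nuclear regulators, 4 were lower with limma on TPM and 4 to 7 without 1 library (4 without either control), 0 to 1 higher without 1 library (0 without either control or shUBXN1 replicate 2), and the median was −0.15 with limma on TPM, −0.13 with total count scaling, −0.25 with the GC trend removed and −0.28 to −0.21 without 1 library. Of the mitochondrially encoded mRNAs, 5 to 13 were higher without 1 library (5 without shCon replicate 1), with medians of 0.32 to 0.57. The ratio of *TFB1M* to *TFB2M* ranged from −0.23 to 0.0027 and that of *LRPPRC* to *SLIRP* from −0.0406 to 0.25 without 1 library, and each turned sign, without shUBXN1 replicate 2 and without shCon replicate 2. Of the other named genes, *SLC25A36*, *PRORP* and *NFE2L2* missed the threshold under some alternatives, 12 results in all.

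The libraries share replicate numbers but not a stated pairing, and the deviations of same-numbered libraries correlated at 0.0775. With the replicate number as a block, 5 of the 10 genes were lower, as without it, and no count besides the 1 above moved by over 1.5 times. The spread was known from 2 libraries a group, and *TFB1M* and *TEFM*, with the fewest counts, had the widest intervals.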
